A study of Mus musculus with 12 samples.

Results

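Distal sites that carry acetylated lysine 27 of histone H3 (H3K27ac) but no trimethylated lysine 4 (H3K4me3) were examined in mouse intestinal organoids treated with arachidonic acid (AA) or vehicle. A site was an H3K27ac peak called with SEACR on chromosomes 1 to 19, shorter than 10 kb, more than 3 kb from both ends of every protein-coding gene in RefSeq, and overlapping no SEACR peak of H3K4me3. Of 62547 H3K27ac peaks, 61679 lay on those chromosomes, 60895 of these were short enough, 45227 were far enough from gene ends, and 26317 lacked H3K4me3. The rule used the position of peaks and the absence of another mark, and no difference between AA and vehicle. The peaks themselves were called on H3K27ac signal, so a weak site may have become a peak through the group where it was high. Which libraries the calling used is not known here. At the distance limit of the rule the nearest site inside lay 3002 bp from a gene end, that of Idi1. The nearest peak outside lay 2999 bp away, at Mast2. The longest site inside was 9485 bp, and 1 peak of 10885 bp was left out for its length alone.

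Each mark was mapped by CUT&RUN: an antibody to the mark brings a nuclease to the chromatin that carries it, and the DNA freed by cutting is sequenced. The AA organoids had grown with 25 µM AA, the omega-6 fatty acid from which prostaglandins are made, for 6 days, and the vehicle organoids without it for the same 6 days. Each group had 2 libraries for each of 3 marks (H3K27ac, H3K27me3 and H3K4me3), 12 libraries in all. Organoids of both groups were grown from isolated crypts in a medium with EGF, Noggin, R-spondin, the GSK3 inhibitor CHIR-99021, the ROCK inhibitor Y-27632, N-acetylcysteine, B27 and N2, so both groups had the Wnt pathway stimulated. The series' design text names organoids that lack a prostaglandin receptor gene and a further arm with a prostaglandin, while the labels of these libraries give no genotype, so the genotype of both groups is not settled. The deposited table names a control in place of vehicle, and those values were read as the vehicle libraries. The labels do not tell whether the libraries of 1 group stem from different cultures or mice. The limma p-values thus measure no more than scatter between these libraries, largely pooled over peaks of like level. It may be technical scatter. All 12 epithelial marker genes checked, among them Epcam, Vil1 and Cdx2, had H3K4me3 at a gene end, against 2 of 8 fibroblast, 2 of 7 blood, 2 of 6 endothelial and 2 of 6 glial and neuronal markers.

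Enhancers are stretches of DNA that raise the transcription of a gene from a distance, and the ones in use carry acetylated H3K27 laid down by p300 and CBP, with much H3K4me1 and little H3K4me3. H3K4me3 marks transcription starts instead, and H3K27me3, written by Polycomb repressive complex 2, marks silenced regions. In the intestinal epithelium, enhancers bound by CDX2, HNF4 and GATA factors serve genes of absorptive cells, and others bound by TCF7L2 serve Wnt targets of the crypt. H3K4me1 was not among the 3 marks, so the sites are called here by their rule, distal and acetylated without H3K4me3, and not enhancers.

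Sequence was at hand for the few sites that contain a transcript start annotated by RefSeq (GRCm38.p6, mm10). Start windows, which span 250 bases before and 50 after a start, lay whole inside 181 sites; there were 203 of them, 166 of long noncoding RNAs and 37 of internal starts of protein-coding genes. The following 250 bases before the start are shown for the lncRNA window in the strongest such site (Gm40444, chr12:76275952-76276201), the strongest at a protein-coding start (Lrrc51, chr7:101921226-101921475), the strongest with an AP-1 motif (Gm30970, chr14:79135218-79135467) and the one inside the strongest site nearest to Cpt1a (Gm36532, chr19:3377491-3377740). All 4 are on the minus strand and are written in the direction of the transcript, with matches to the 8 motifs named below in capitals on either strand, a GATA match in Gm40444, a CDX match in Lrrc51, and an AP-1 match between 2 FOX matches in Gm30970, and no match in Gm36532.
Gm40444: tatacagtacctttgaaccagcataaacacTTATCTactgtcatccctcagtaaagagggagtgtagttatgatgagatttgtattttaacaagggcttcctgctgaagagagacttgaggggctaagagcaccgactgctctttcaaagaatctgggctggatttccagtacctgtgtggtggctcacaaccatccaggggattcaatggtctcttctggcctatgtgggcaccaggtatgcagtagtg
Lrrc51: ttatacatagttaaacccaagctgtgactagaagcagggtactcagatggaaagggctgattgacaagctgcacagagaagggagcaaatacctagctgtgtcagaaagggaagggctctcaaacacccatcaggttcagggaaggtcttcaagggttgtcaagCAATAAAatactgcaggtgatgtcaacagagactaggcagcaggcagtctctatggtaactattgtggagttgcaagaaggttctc
Gm30970: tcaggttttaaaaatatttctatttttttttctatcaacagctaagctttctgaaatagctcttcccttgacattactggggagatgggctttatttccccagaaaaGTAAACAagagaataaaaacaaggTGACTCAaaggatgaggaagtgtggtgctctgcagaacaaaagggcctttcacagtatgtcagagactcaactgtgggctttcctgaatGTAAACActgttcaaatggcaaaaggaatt
Gm36532: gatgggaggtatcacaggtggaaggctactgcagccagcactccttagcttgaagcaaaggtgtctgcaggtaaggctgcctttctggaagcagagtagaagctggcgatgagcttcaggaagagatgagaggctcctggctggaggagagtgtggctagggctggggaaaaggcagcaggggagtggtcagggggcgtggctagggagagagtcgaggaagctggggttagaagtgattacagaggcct

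The 203 windows were poorer in CpG than start windows at large. Their median GC content was 46.7% with 3 CpG dinucleotides, against 53% and 7 over all 31396 autosomal windows and 48.3% and 4 over the 11311 windows of lncRNAs. The AP-1 motif TGANTCA, the site of FOS and JUN dimers, was in 13.8% of the windows inside sites and in 7.84% of all windows. The GATA motif AGATAA was in 18.2% against 11.2%. Among lncRNA windows alone these shares were 14.5% against 9.25% for AP-1 and 20.5% against 14.0% for GATA, 6.63% against 5.07% for HNF4 (CAAAGTC) and 6.02% against 4.66% for TCF (CTTTGAT). For CDX (TTTATNG) they were 11.4% against 13.3%, for TEAD (GGAATG) 13.9% against 16.7%, for FOX (TGTTTAC) 4.82% against 4.91% and for CRE (GACGTCA) 1.81% against 2.06%, lower inside sites in each. Set against all windows, the HNF4 motif had 6.40% against 4.48% of all windows, the TCF motif 5.91% against 3.76%, and the CDX motif 12.3% against 10.9%. The TEAD motif had 15.3% against 14.6%, the FOX motif 3.94% against 3.71%, and the CRE motif 2.46% against 3.25%. Both strands were searched, no 2 of the motifs hold each other, and the shares describe letters in windows chosen by annotated starts, which are a small share of the sites.

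MicroRNA hairpins lay inside 17 sites, 18 hairpins in all. The hairpins of Mir29a and Mir29b-1, microRNAs that act on collagen transcripts, shared 1 site (chr6:31061055-31063378), and their 3p arms, shown with the seed (bases 2 to 8) in capitals, have the same seed.
mmu-miR-29a-3p: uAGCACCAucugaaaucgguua
mmu-miR-29b-3p: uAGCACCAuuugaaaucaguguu
The H3K27ac score of that site was 0.291 and 0.221 in the AA libraries, against 0.118 and 0.202 in the vehicle libraries. The groups did not overlap, but the log2 change of 0.52 ± 0.26 (SE) did not pass the test (limma adjusted p = 0.645). The site with Mir30a had 0.120 and 0.129 in AA and 0.233 and 0.141 in vehicle, and did not pass either (limma adjusted p = 0.814). Of the other hairpin sites, the one with Mir7008 had 0.289 and 0.247 in AA and 0.102 and 0.138 in vehicle, the lowest adjusted p of the set by limma (0.301).

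The sites were short, weak and mostly inside genes. Their median length was 1829 bp (5th to 95th percentile 1172 to 3347), against 2490 bp for the 18910 distal H3K27ac peaks that did overlap H3K4me3 and 3102 bp for the 12475 H3K27ac peaks within 1 kb of a gene end. The median distance to the nearest gene end was 26.4 kb, and 20975 sites lay more than 10 kb away. In all, 72.3% (19037 sites) overlapped a gene body, against 55.4% of distal peaks with H3K4me3. A protein-coding gene lay within 50 kb of 23005 sites (87.4%), 7253 genes in all, an assignment by distance only.

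The deposited score behaves as the mean depth of fragments over a peak, multiplied by a factor of the library. Its median over the sites was 0.146 and 0.142 in the AA libraries, against 0.136 and 0.134 in the vehicle libraries. Undoing the factor gave a raw depth of 1.64 and 2.10 fragments per base in AA and 1.41 and 1.87 in vehicle, so a site rests on few fragments. Distal peaks with H3K4me3 had medians of 0.246 and 0.222 in AA and 0.221 and 0.206 in vehicle, and gene-end peaks 0.291 and 0.268 in AA and 0.255 and 0.242 in vehicle. The distal sites without H3K4me3 were thus the weakest class in every library. Only 151 of them (0.574%) overlapped an H3K27ac peak that MACS2 called, against 20.8% of distal peaks with H3K4me3 and 34.8% of gene-end peaks.

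**Figure D1:**
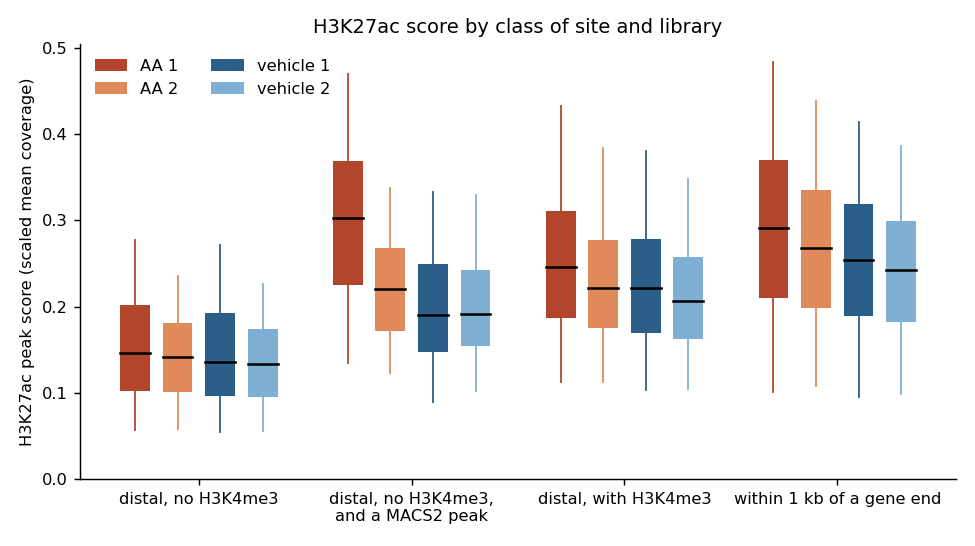
H3K27ac peak score in each library for distal sites without H3K4me3 (26317), the 151 of them that overlap a MACS2 peak, distal peaks with H3K4me3 (18910) and peaks within 1 kb of a gene end (12475). Boxes span the quartiles, black lines mark medians and thin lines the 5th to 95th percentile; the distal sites without H3K4me3 have medians of 0.134 to 0.146, below the other classes in all 4 libraries.

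The level of single sites was hardly shared between libraries. Over the 26317 sites the Spearman correlation of score was 0.21 between the AA libraries and -0.04 between the vehicle libraries, and 0.031 to 0.090 across groups. Distal peaks with H3K4me3 had 0.526 to 0.633 over the same pairs of libraries, and gene-end peaks 0.723 to 0.803. The 151 sites that overlapped a MACS2 peak had -0.08 between the AA libraries and 0.40 between the vehicle libraries. These correlations are across sites of the same libraries and describe how far the ranking of sites repeats. They also depend on the range of mean score taken. Where the mean score lay between 0.0960 and 0.207, the 5th and 95th percentile of the sites, 7757 distal peaks with H3K4me3 remained. Those had 0.10 between the AA libraries and -0.02 between the vehicle libraries, and the 23685 sites in that range 0.10 and -0.12. The mean was taken over the same 4 libraries, and holding it in a band itself lowers such correlations. These values therefore cannot tell whether the low repeat was particular to sites without H3K4me3.

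The 10 strongest sites had mean scores above this range, though some differed widely within a group. The highest mean score belonged to a site of 418 bp on chromosome 1 (chr1:100738598-100739015), with no protein-coding gene within 50 kb. Its score was 0.362 and 0.492 in the AA libraries, against 0.709 and 0.874 in the vehicle libraries, both vehicle libraries above both AA libraries. Next came a site of 488 bp near Fam91a1, whose product tethers vesicles at the Golgi, with 0.450 and 0.308 in AA and 0.650 and 0.405 in vehicle. A site within Zfp473, a zinc finger gene, had 0.572 and 0.375 in AA and 0.332 and 0.406 in vehicle, and one within Cgnl1, which encodes a protein of tight and adherens junctions, had 0.397 and 0.358 in AA and 0.310 and 0.243 in vehicle. Ptk2, the gene of focal adhesion kinase, held one with 0.388 and 0.312 in AA and 0.298 and 0.299 in vehicle. The site within Tusc3, which encodes a subunit of the oligosaccharyltransferase, had 0.130 and 0.530 in AA and 0.117 and 0.486 in vehicle, so the second library of each group was high and the first low. Of these 10 strongest sites the chromosome 1 site alone passed the test between AA and vehicle, and 7 overlapped a MACS2 peak.

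Some sites lay in groups along long genes, though most groups were single sites. Joined over gaps of up to 12.5 kb they formed 16126 groups, of which 11023 (68.4%) were single sites and 637 held 5 or more. The largest groups had 18 sites, one over 120 kb at Tmcc1 and one over 96.9 kb at Neo1, the gene of the netrin receptor neogenin. By nearest gene, Vps13b, which encodes a lipid transfer protein of the Golgi, had 48 sites over its 560 kb and Gmds, an enzyme of fucose synthesis, had 42. Tcf12, an E-protein transcription factor, had 31 within 268 kb. Other long genes were sparser, with 31 sites over 1203 kb at Ccser1 and 30 over 1998 kb at Macrod2. The number to be looked for from gene length alone was not computed. The median gene with a site had 2, 3067 genes had 1, and 407 genes had 10 or more.

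Genes with a site nearby mostly had H3K4me3 at a gene end. Of the 7253 genes with 1 or more sites nearest, 81.9% had an H3K4me3 peak within 1 kb of an end, against 60.4% of the 13412 autosomal genes without one. Gene length differed as well, with medians of 46.5 kb and 10.1 kb. Within the shortest genes by length, split into 3 equal classes, the shares were 53.1% and 51.5%, in the middle class 84.2% and 73.4%, and in the longest class 84.7% and 56.7%. The gap between genes with and without sites was thus widest among long genes.

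The density of sites differed between lists of genes with known roles, counted per Mb of gene body with 50 kb on either side; the count takes every site centred in these windows, also those nearest to a gene outside the list. Over all protein-coding genes it was 14.7 sites per Mb, with 10.4 per Mb for distal peaks with H3K4me3. Stem cell genes had 28.5 per Mb, from 101 sites in their windows. By nearest gene 79 sites belonged to 14 of the 20 stem cell genes, led by Ephb2, the receptor that sorts crypt cells, with 14, Znrf3, a ubiquitin ligase that removes Wnt receptors, with 12, and Cdk6 with 11. Genes of sterol synthesis and fatty acid desaturation had 29.9 per Mb (83 sites in the windows, against 42 by nearest gene), Polycomb and other histone modifier genes 27.1 and enterocyte genes 22.3 (75 in the windows, 40 by nearest gene). Intestinal identity factors had 15.9 per Mb, close to all genes, but 25.0 per Mb of distal peaks with H3K4me3, and AP-1 and immediate early genes 9.30 against 21.6. Lists of other tissues were low: fibroblast genes had 7.26 sites per Mb, blood cell genes 8.75, and endothelial and glial genes 5.01. Some lists of intestinal cell types were about as low, with 7.64 for enteroendocrine, 8.51 for secretory and goblet and 9.29 for Paneth genes. A low density thus did not set other tissues apart. Among single genes, Gata6 had 7 sites, Areg 5 and Cpt1a 4, while Olfm4, Myc, Atoh1 and Sox9 had none but 5, 5, 4 and 2 distal peaks with H3K4me3.

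**Figure D2:**
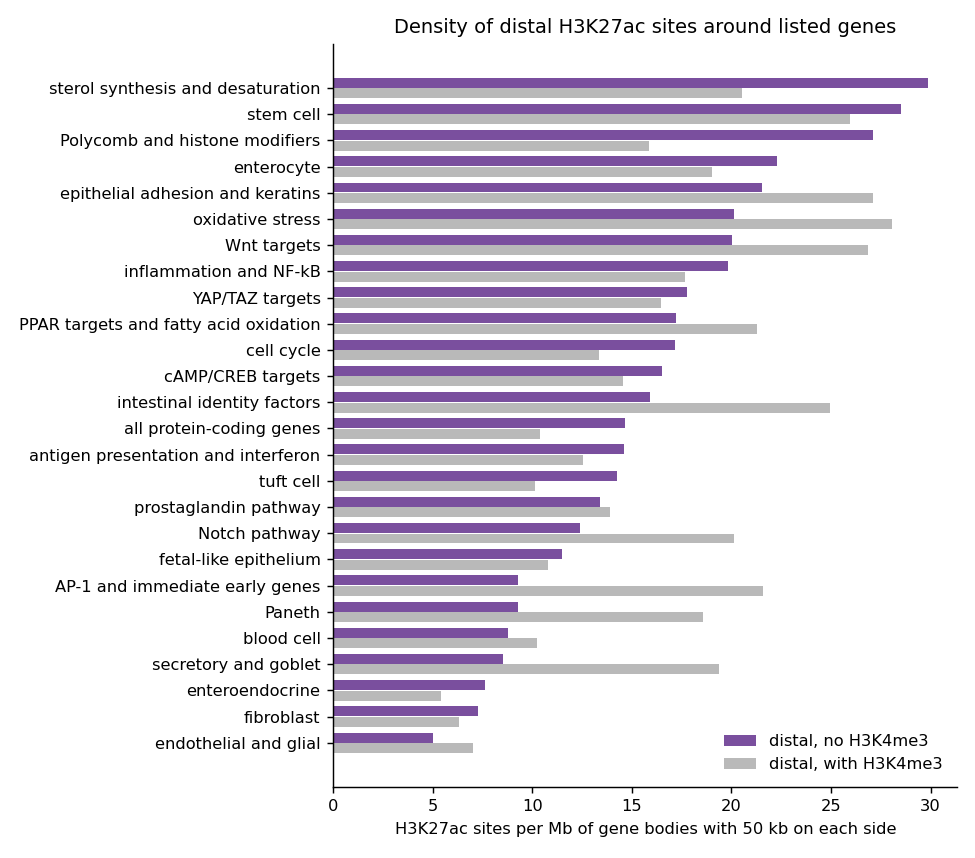
Distal H3K27ac sites per Mb around the genes of each list, without H3K4me3 (purple) and with it (grey), for 25 lists and for all protein-coding genes. Stem cell, sterol and histone modifier genes lie at 27.1 to 29.9 sites per Mb without H3K4me3, above 14.7 for all genes. Fibroblast, blood cell, endothelial and glial genes lie below it at 5.01 to 8.75, as do enteroendocrine (7.64), secretory and goblet (8.51) and Paneth genes (9.29).

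AA against vehicle changed few of the sites. By limma on log2(score + 0.0693) over all 62547 H3K27ac peaks, 11 sites rose and 4 fell at an adjusted p under 0.05 (Benjamini-Hochberg), 0.057% of the sites. Over all H3K27ac peaks 0.155% were called higher and 0.0448% lower, 0.2% in either direction. At an unadjusted p under 0.05 there were 1288 sites (4.89%), against 4821 of all peaks (7.71%). The sites thus did not exceed the background. Of the 15, 14 were among the strongest 10% of the sites by mean score. Between genes lay 10 of the 15, against 7280 of all 26317 sites. The pseudocount understates changes of weak sites, which the test can hardly call, so the share among strong sites follows in part from the method. Centring each library on its median over all peaks gave 7 higher and 6 lower, and centring on the strongest 25% of peaks, which lowers every change by 0.14, gave 6 and 13. Leaving out AA replicate 1 left 0 calls, and leaving out AA replicate 2 left 0 higher and 1 lower. Without vehicle replicate 1 the counts were 12 higher and 1 lower, and without vehicle replicate 2 they were 10 higher and 23 lower. No site of the 15 passed in all 4 fits that leave out a library.

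The largest rise was at a site of 1055 bp between genes, 44.6 kb from Slc35f3, a solute carrier gene (chr8:126092706-126093760). Its score was 0.416 and 0.269 in the AA libraries, against 0.0720 and 0.0549 in the vehicle libraries, which is 1.61 ± 0.32 (SE) higher in log2 terms (limma adjusted p = 0.00179). The raw depth was 4.67 and 3.98 fragments per base in AA and 0.744 and 0.767 in vehicle. Both AA libraries stood above both vehicle libraries here and at the other 10 sites that rose. Peak calling on H3K27ac signal can favour such sites, so the lack of overlap is no separate support for the calls. A site within Aldh1a1, whose enzyme makes retinoic acid from retinal (chr19:20529316-20531412), had 0.360 and 0.347 in AA and 0.0705 and 0.147 in vehicle (1.28 ± 0.26, limma adjusted p = 0.00232). No H3K4me3 peak was found at an end of Aldh1a1.

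Galk2, which encodes a kinase of N-acetylgalactosamine, held the rise with the smallest p (chr2:125897717-125899554), and its site overlapped a MACS2 peak and an H3K27me3 peak. The H3K27ac score was 0.463 and 0.429 in AA and 0.208 and 0.108 in vehicle, a change of 1.22 ± 0.20 (limma adjusted p = 1.2e-05). The H3K27me3 peak, in other libraries, had 0.0723 and 0.251 in AA and 0 and 0.0213 in vehicle, and did not pass (limma adjusted p = 0.255). The site within Ggt1, which splits extracellular glutathione, had 0.263 and 0.317 in AA and 0.0887 and 0.0614 in vehicle (1.32 ± 0.33, limma adjusted p = 0.0416). The site 3.85 kb from Gstk1, a glutathione transferase, had 0.535 and 0.284 in AA and 0.226 and 0.106 in vehicle (1.02 ± 0.21, limma adjusted p = 0.00232). Under centring on the median the Ggt1 site no longer passed (adjusted p = 0.0780), and the Gstk1 site did (adjusted p = 0.00346).

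Ephb2 had the only called site in any of the 25 lists, and stood in those of stem cell genes and Wnt targets. That site lay within the gene (chr4:136794079-136795239) and had 0.324 and 0.342 in AA and 0.182 and 0.0964 in vehicle (0.98 ± 0.24, limma adjusted p = 0.0355). Centring on the median ended the call (adjusted p = 0.0627). It was 1 of 14 sites nearest to Ephb2, whose median change was -0.20, and the mean score over those 14, weighted by length, was 0.171 and 0.164 in AA and 0.184 and 0.170 in vehicle. A rise at 1 site of Ephb2 thus stood among sites whose groups overlapped in the mean.

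The other rises were at Dcaf5, which encodes a substrate receptor of a ubiquitin ligase, at Ripor3, at Zfp280d, and at sites on chromosomes 3 and 5 with no gene within 50 kb. The Dcaf5 site had 0.453 and 0.235 in AA and 0.0817 and 0.112 in vehicle, and the Ripor3 site 0.315 and 0.295 in AA and 0.0638 and 0.141 in vehicle. At Zfp280d, a zinc finger gene, the score was 0.461 and 0.242 in AA and 0.105 and 0.183 in vehicle. The chromosome 5 site (chr5:47502630-47503566) had 0.359 and 0.313 in AA and 0.133 and 0.0639 in vehicle, and the chromosome 3 site (chr3:21667556-21668561) 0.328 and 0.354 in AA and 0.120 and 0.142 in vehicle. The calls at Ripor3 and Zfp280d were lost under centring on the median (adjusted p = 0.0673 and 0.0627), and those at Dcaf5 and on chromosomes 3 and 5 held there.

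Of the 4 falls, the one on chromosome 1 was at the strongest site described above, with a log2 change of -0.80 ± 0.13 (limma adjusted p = 9.7e-06). Near Rex2, a zinc finger gene, the site had 0.0531 and 0.160 in AA and 0.480 and 0.205 in vehicle (-1.21 ± 0.28, limma adjusted p = 0.0182). Rex2 lies among near-identical zinc finger genes, so where its fragments belong is uncertain. The site within Zdhhc20, a palmitoyltransferase gene, had 0.0989 and 0.0860 in AA and 0.386 and 0.252 in vehicle (-1.24 ± 0.29, limma adjusted p = 0.0197). The site near Endod1 had 0.162 and 0.0346 in AA and 0.362 and 0.240 in vehicle (-1.23 ± 0.31, limma adjusted p = 0.0404). In each of the 4 both AA libraries were below both vehicle libraries, and the sites at Zdhhc20 and Endod1 passed in none of the 4 fits that leave out a library.

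**Figure D3:**
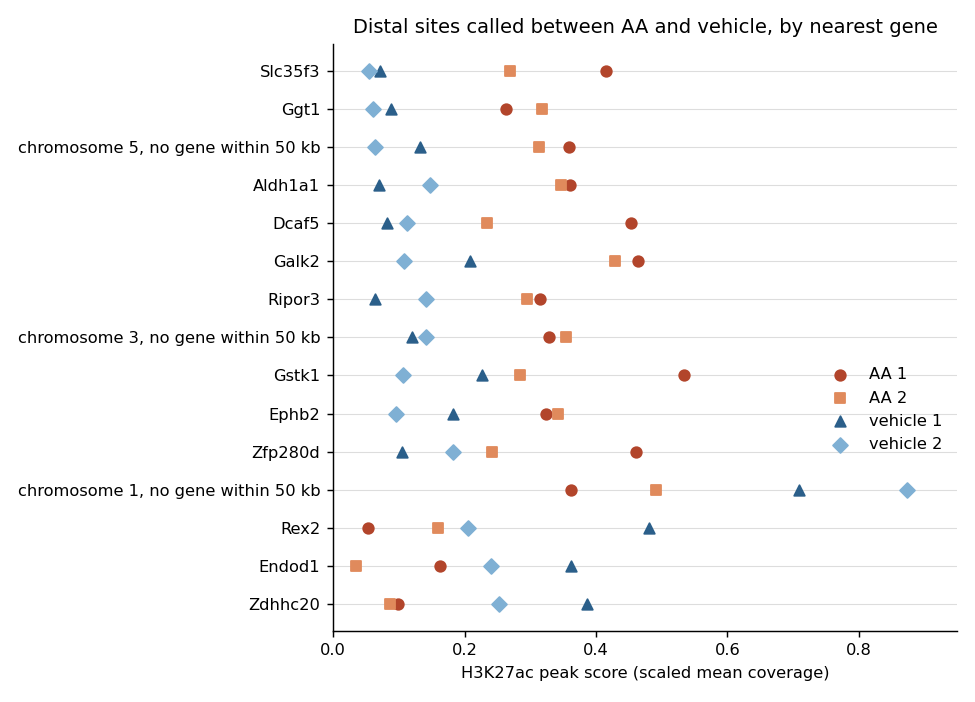
H3K27ac peak score in each of the 4 libraries at the 15 distal sites called between AA and vehicle, named by the nearest gene and ordered from the largest rise at the top (Slc35f3, 1.61 on the log2 scale) to the largest fall at the bottom (Zdhhc20, -1.24). AA libraries are red circle and orange square, vehicle libraries dark blue triangle and light blue diamond; the groups do not overlap at any of the 15 sites.

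Over all 26317 sites the median change was 0.07 on the log2 scale, against 0.11 over all H3K27ac peaks, 0.11 over distal peaks with H3K4me3 and 0.15 over gene-end peaks. Both AA libraries lay above both vehicle libraries at 22.6% of the sites (28.5% of all H3K27ac peaks), and below them at 13.5% (10.7% of all peaks). The median log2 level of the sites was below that of all other autosomal peaks by 0.59 and 0.51 in the AA libraries and by 0.54 and 0.48 in the vehicle libraries. These gaps differed between AA and vehicle by -0.04, with a two-sided exact permutation p = 0.667; with 2 libraries against 2 the smallest p possible is 0.333, so no such difference can pass. The 151 sites that overlapped a MACS2 peak had a larger median change, 0.26, with medians of 0.303 and 0.220 in AA and 0.190 and 0.191 in vehicle. Of the AA libraries the first was much the higher there, while the vehicle libraries were level.

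Sites inside genes scored above sites between genes in both AA libraries, while in the vehicle libraries the medians of these classes lay close together. In gene bodies the median score was 0.152 and 0.148 in AA, against 0.135 and 0.134 in vehicle. Between genes it was 0.127 and 0.121 in AA, against 0.139 and 0.130 in vehicle. On the log2 scale the genic median exceeded the intergenic one by 0.17 and 0.20 in AA and by -0.03 and 0.03 in vehicle, with no overlap of the groups. The difference between AA and vehicle was 0.18 (exact permutation test, two-sided, p = 0.333, the smallest it can give). Distal peaks with H3K4me3 gave 0.01 and 0.01 in AA and -0.02 and -0.01 in vehicle for the same quantity. After quantile normalization the values for the sites were 0.16 and 0.21 in AA and -0.03 and 0.03 in vehicle.

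This split also stood in the fitted changes, whose median was 0.11 for the 19037 sites in genes and -0.06 for the 7280 between genes. Scaling moves both together: centred on the library medians they were 0.03 and -0.13, and centred on the strongest 25% of peaks -0.04 and -0.20, so the direction in genes turns with the scaling and the gap does not. By distance, the median change was 0.09 for sites 3 to 10 kb from a gene end, 0.08 at 10 to 50 kb, 0.04 at 50 to 200 kb and -0.06 beyond 200 kb (1607 sites). Sites between genes also overlapped H3K27me3 more often, 14.3% against 4.54% in genes, and were weaker, with a median mean score of 0.131 against 0.146. The part of that weakness in the split was not tested.

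**Figure D4:**
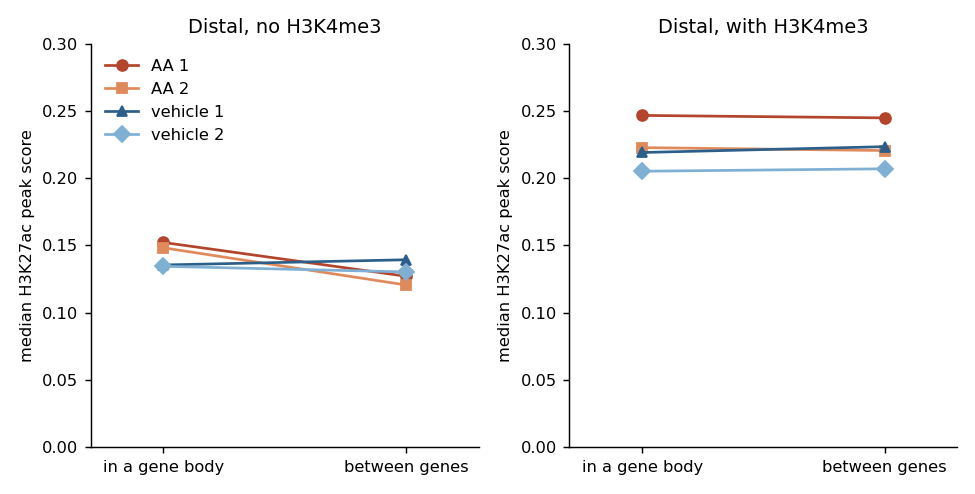
Median H3K27ac peak score per library for sites in gene bodies and between genes, for distal sites without H3K4me3 (left) and with H3K4me3 (right). In the left panel both AA lines slope down, from 0.152 and 0.148 in genes to 0.127 and 0.121 between genes, while the vehicle lines stay between 0.130 and 0.139; in the right panel all 4 lines are nearly level.

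Among lists of nearest genes, the enterocyte genes had the highest mean score of their sites in the AA group. The 40 sites nearest to 11 of the 28 genes had a mean score, weighted by length, of 0.190 and 0.176 in AA and 0.143 and 0.155 in vehicle, 1.23 times higher in AA. Over all 23005 sites with a gene the means were 0.158 and 0.150 in AA and 0.143 and 0.137 in vehicle, 1.10 times higher. Mgam, which encodes the brush border enzyme maltase-glucoamylase, had 19 of the 40 sites, with 0.20 and 0.175 in AA and 0.156 and 0.153 in vehicle. The site nearest to Slc5a1, the sodium-glucose cotransporter gene, had 0.285 and 0.233 in AA and 0.0669 and 0.198 in vehicle, and that at Anpep, an aminopeptidase gene, had 0.265 and 0.264 in AA and 0.201 and 0.185 in vehicle. None of the enterocyte sites passed the test (limma, lowest adjusted p = 0.391 at Slc5a1). An unadjusted p under 0.05 was found at 4 of the 40 sites, against 1139 of the 23005 sites with a gene. With each library divided by its median over all peaks the enterocyte means were 0.177 and 0.178 in AA and 0.143 and 0.166 in vehicle, and divided by the strongest 25% of peaks 0.171 and 0.175 in AA and 0.148 and 0.171 in vehicle, where the groups met.

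In 11 of the 25 lists both AA means lay above both vehicle means, in 14 the groups overlapped, and in 0 lists AA lay below. With each library divided by its median over all peaks this became 4 above, 20 overlapping and 1 below, and divided by the strongest 25% of peaks 1, 21 and 3. The list that kept AA above under both was that of the fetal-like epithelium, the state the intestine enters on injury, with 16 sites at 10 of 24 genes and means of 0.172 and 0.152 in AA and 0.145 and 0.129 in vehicle. Its median change was 0.03, and 0 of the 16 sites were called. The site nearest to Il1rn, the interleukin-1 receptor antagonist gene, had the lowest p there, with 0.305 and 0.231 in AA and 0.140 and 0.0998 in vehicle (limma adjusted p = 0.309). Other genes of the list went the other way. The median change of the sites was -0.28 at Anxa2, -0.46 at Anxa5, -0.48 at Il33 and -0.41 at Krt7, and above 0 at the remaining genes. YAP/TAZ targets had 51 sites and means of 0.161 and 0.147 in AA and 0.144 and 0.123 in vehicle, while tuft cell genes had 10 sites with 0.148 and 0.120 in AA and 0.179 and 0.119 in vehicle.

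**Figure D5:**
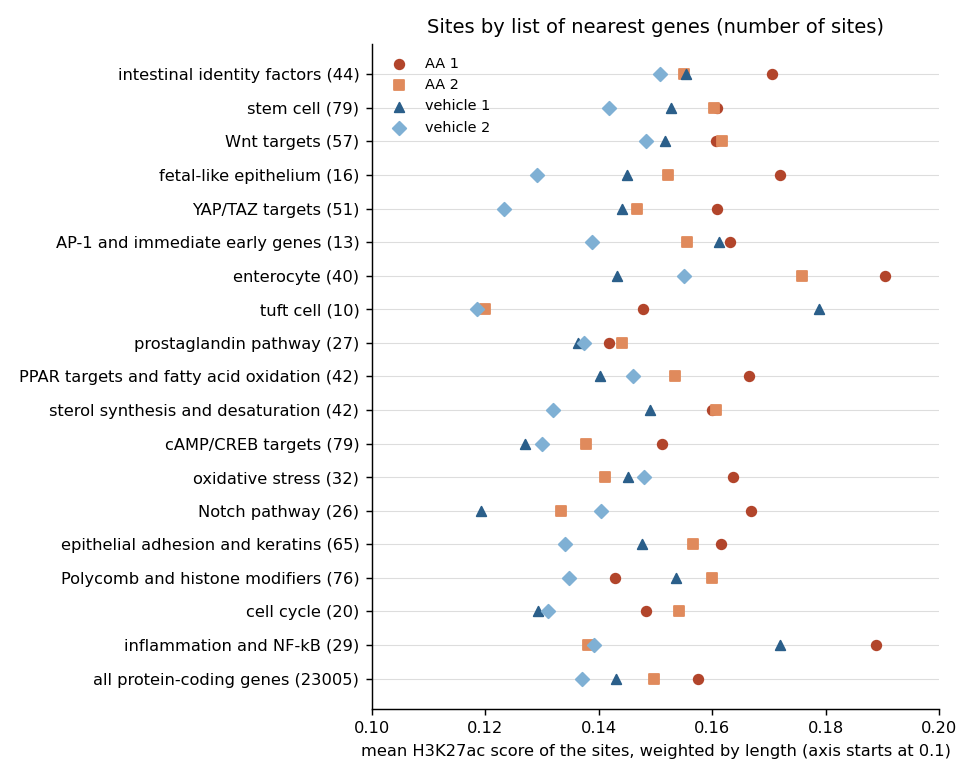
Mean H3K27ac score of the distal sites nearest to the genes of each list with 10 or more sites, weighted by site length, in each of the 4 libraries, with all genes (23005 sites) at the bottom. The AA libraries (red circle, orange square) stand farthest from the vehicle libraries (blue triangle and diamond) for the 40 enterocyte sites, at 0.190 and 0.176 against 0.143 and 0.155.

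At Lgr5, Klf5, Hnf4a, Elf3 and Gata6, genes of the epithelium, the strongest site did not pass the test, whether or not its groups overlapped. The site within Lgr5, the receptor gene that marks crypt stem cells, had 0.162 and 0.170 in AA and 0.187 and 0.177 in vehicle, both AA libraries just below both vehicle libraries, with a change of -0.09 ± 0.30 (limma adjusted p = 0.941). The strongest site of Klf5, a zinc finger factor of proliferating crypt cells, had 0.207 and 0.228 in AA and 0.196 and 0.195 in vehicle (limma adjusted p = 0.917). The site within Hnf4a, an identity factor of the epithelium, had 0.141 and 0.169 in AA and 0.148 and 0.198 in vehicle, with overlap. Near Elf3, an epithelial ETS factor, the values were 0.156 and 0.194 in AA and 0.301 and 0.160 in vehicle, also with overlap. The strongest site of Gata6, a zinc finger factor of the endoderm, had 0.293 and 0.247 in AA, against 0.194 and 0.185 in vehicle, again without overlap, and a change of 0.39 ± 0.23 that did not pass (limma adjusted p = 0.726). Of these genes only Gata6 had a gene-end H3K4me3 peak called between AA and vehicle, higher in AA by 0.44 (limma adjusted p = 0.00362).

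Sites of the genes around prostaglandins and growth factors did not pass either. The site nearest to Ptgs2, the gene of cyclooxygenase 2, had 0.249 and 0.0607 in AA and 0.0859 and 0.109 in vehicle, so 1 AA library was above and 1 below. Near Ptger4, a receptor gene of prostaglandin E2, the values were 0.0722 and 0.127 in AA and 0.0747 and 0.0746 in vehicle, and within Hpgd, which encodes the enzyme that inactivates prostaglandins, 0.229 and 0.180 in AA and 0.154 and 0.241 in vehicle. The site near Ereg, an EGF receptor ligand gene, had 0.257 and 0.222 in AA and 0.187 and 0.155 in vehicle (0.37 ± 0.26, limma adjusted p = 0.771), and the strongest of the 5 near Areg had 0.252 and 0.174 in AA and 0.209 and 0.174 in vehicle. The site within Cpt1a, whose enzyme carries fatty acids into mitochondria, had 0.341 and 0.183 in AA and 0.190 and 0.156 in vehicle (0.41 ± 0.25, limma adjusted p = 0.734). H3K4me3 at the gene end, in other libraries, was called higher in AA at Ptgs2 (change 1.54, limma adjusted p = 0.0213). The same held at Ereg (1.26, limma adjusted p = 0.000163) and Areg (0.92, limma adjusted p = 0.000345). It was not called at Ptger4, Hpgd and Cpt1a.

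The site 11.6 kb from Anxa1, an annexin gene, had 0.0664 and 0.162 in AA, against 0.0296 and 0.0265 in vehicle. The vehicle libraries rested on 0.306 and 0.370 fragments per base there, and the change of 0.86 ± 0.75 did not pass (limma adjusted p = 0.804). The H3K4me3 score at the gene end, in other libraries, was 1.12 and 1.07 in AA and 0.271 and 0.229 in vehicle. That change of 2.03 ± 0.21 passed (limma adjusted p = 3.9e-18).

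H3K4me3 at the ends of the nearest genes, measured with another antibody in other libraries, was set beside the sites. Of the 5941 genes with a site and a gene-end H3K4me3 peak, 363 (6.11%) had a peak called higher in AA and 72 (1.21%) one called lower, against 5.16% and 1.25% of the 8099 genes without a site. As distinct peaks, those at genes with a site were 341 higher and 72 lower, and 2296 higher and 58 lower once each H3K4me3 library was centred on its median, so these counts rest on the deposited scaling. Over all H3K4me3 peaks, most of them not at gene ends, 1.54% were called higher and 1.38% lower, 2.92% in either direction. The Spearman correlation between the median change of a gene's sites and the change of its gene-end H3K4me3 was 0.09 over the 5941 genes, which share the libraries of each mark. Of the 15 called sites, 11 had a nearest gene with such a peak, 4 of the 11 changed in the same direction as it, and 0 of these peaks passed the H3K4me3 test. At Galk2, for instance, the gene-end score was 0.965 and 0.943 in AA and 0.697 and 0.686 in vehicle, a change of 0.45 (limma adjusted p = 0.109). At Ephb2 it was 1.14 and 0.888 in AA and 1.02 and 1.02 in vehicle.

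H3K27me3 peaks overlapped 7.23% of the sites (1904), against 12.1% of distal peaks with H3K4me3 and 17.4% of gene-end peaks. The 1871 H3K27me3 peaks concerned had median scores of 0.0924 and 0.105 in AA and 0.0880 and 0.0885 in vehicle, below those of all H3K27me3 peaks (0.112 and 0.122 in AA, 0.107 and 0.105 in vehicle). Of these, 2 were called higher in AA and 0 lower, with 139 at an unadjusted p under 0.05 (limma); centring left 1 call. Over all 105301 H3K27me3 peaks 0.498% were called higher and 0.0475% lower. The change of H3K27me3 and that of H3K27ac had opposite signs at 51.0% of the 1904 sites, with a Spearman correlation of -0.01 across them.

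The chromosome 1 site was one of the 2 with a called H3K27me3 peak. Its H3K27me3 score (chr1:100738656-100739235) was 0.398 and 0.357 in AA and 0.206 and 0.184 in vehicle, a change of 0.85 ± 0.13 (limma adjusted p = 9.7e-06), opposite in direction to its H3K27ac. In each mark both AA libraries lay on one side of both vehicle libraries. The other was a broad H3K27me3 peak by Hlx, a homeobox gene, with 0.563 and 0.546 in AA and 0.466 and 0.435 in vehicle (0.28 ± 0.06, limma adjusted p = 0.00485). The H3K27ac site inside it had 0.0593 and 0.0518 in AA and 0.188 and 0.0551 in vehicle, and its change did not pass (limma adjusted p = 0.847).

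Applied to MACS2 peaks, the same rule gave 870 distal H3K27ac peaks without H3K4me3, of a median 279 bp. Their median score was 0.700 and 0.551 in AA and 0.428 and 0.419 in vehicle, and their median change 0.38 on the log2 scale, against 0.26 over all 9817 MACS2 H3K27ac peaks. By limma 0 of the 870 and 0 of all MACS2 peaks (0%) passed, and 54 of the 870 and 694 of all had an unadjusted p under 0.05. Only 178 of the 870 lacked H3K4me3 by both callers.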

How the data were processed

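The measurements are 12 CUT&RUN libraries, 2 per group for each of 3 marks. The deposited signal is a score per peak and library, which the authors gave for SEACR and MACS2 peaks on mm10, per the submitters' processing notes; of versions, aligner and scaling the sources used here say nothing. Multiplied by the length of its peak, the H3K27ac scores that could be checked, those below 1000 steps (925 to 3162 values per library), were whole numbers of library steps in 100% of cases with a tolerance of 0.1, the pattern of a scaled mean coverage, and dividing by the step gave the raw depth. Genes, starts and microRNAs came from RefSeq tables in mm10 coordinates (21887 protein-coding genes); overlaps needed 1 base.

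AA minus vehicle was tested with limma 3.58.1 (trend and robust) in R 4.3.3 on log2(score + pseudocount), separately per mark over all its SEACR peaks, with Benjamini-Hochberg adjustment at 0.05 and the deposited scaling. The pseudocount was the 5th percentile of positive values, 0.0693 for H3K27ac, 0.0329 for H3K27me3, 0.0253 for H3K4me3 and 0.281 for MACS2 H3K27ac, and changes of weak peaks are understated. Lists and median changes were described without a test; per-library differences of medians were compared by exact permutation over the 4 libraries. The limma SE mostly followed the level of a peak, not its own spread. At Dcaf5 it was 0.28, where the AA libraries had a standard deviation of 0.154. At the called chromosome 5 site it was also 0.28, with an AA standard deviation of 0.0327. Tables were handled in Python 3.11.15 with pandas 2.3.3 and scipy 1.17.1.

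Named sites are the called sites whose groups do not overlap (up to 10 per direction, predicted genes left out), called sites of the 25 lists, the 10 strongest sites and the strongest site of each of 26 genes picked by name. Sites and genes named beyond this rule were chosen after their values were seen: the called sites on chromosomes 3 and 5, the microRNA sites, the genes with the most sites, and single genes within the enterocyte, stem cell and fetal-like lists. The sites, lists and genes were chosen with earlier results of these data known. Alternatives covered scaling, pseudocount, low values, caller, left-out libraries, variance model, threshold and the site rule; centring of H3K27me3 and H3K4me3, the rescaled list means and the comparison by place were added after the data were seen. Motifs, planned for site centres, were searched in RefSeq start windows inside sites, since site sequences were not used here.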

Additional observations from a re-analysis of the deposited data

How the results depend on the processing

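The counts of called sites rest on single libraries and on the variance model. Against 11 higher and 4 lower sites as reported, leaving out 1 library at a time gave 0 to 12 higher and 0 to 23 lower, and 0 to 120 calls over all H3K27ac peaks in place of 125. The median change ran from 0.0032 to 0.13, in place of 0.07. Where a group keeps 1 library, its spread is assumed to be that of the other group. Without AA replicate 1, 281 sites were higher and 345 lower at an unadjusted p under 0.05 by limma. Limma without trend and robust gave 0 higher, 0 lower and 0 over all peaks, with 1448 sites higher, 798 lower and 3695 peaks in all at an unadjusted p under 0.05. Testing only the stronger peaks, above the median of mean score, gave 0, 0 and 0, with a median of 0.12 and 2968 peaks at an unadjusted p under 0.05. A threshold of 0.01 left 6 higher, 1 lower and 54 over all peaks.

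Centring each library on its median gave 7 higher with a median of -0.0044, centring on the strongest 25% of peaks 6 higher and 13 lower with a median of -0.075, and quantile normalization 6 and 8 with a median of -0.00022. Doubling the pseudocount gave a median of 0.049. Of the 15 called sites 11 passed after centring on the median and 10 after quantile normalization. Keeping only the 151 sites with a MACS2 peak left 3 higher and 0 lower with a median of 0.26 (53 at an unadjusted p under 0.05), and MACS2 peaks gave 0, 0 and 0 over all with a median of 0.38. The gap in level between the distal and the other peaks differed between AA and vehicle by -0.04 as reported. With MACS2 peaks this difference changed sign, to 0.10 (exact permutation p = 0.333). The distal MACS2 peaks still had a median score below that of all MACS2 peaks in every library. Centring left 1 called H3K27me3 peak at the sites in place of 2. It raised the called H3K4me3 peaks at the nearest genes to 2354, of which 2296 were higher and 58 lower, in place of 413 (341 and 72). The cause was not tested for any of these. The remaining settings, among them the site rules of more than 10 kb and of no H3K4me3 by either caller, moved no count by over 1.5 times.

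The replicate numbers did not pair the H3K27ac libraries: deviations of same-numbered libraries correlated at 0.0085 over 62547 peaks. With the replicate block limma called 18 sites higher and 280 peaks over all. All 15 called sites passed there.

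With 1.41 to 2.10 fragments per base at the median site, the value of a single weak site rests on few fragments; how far depth limits the calls was not tested. Few libraries, an unsettled genotype, unknown scaling and assignment of genes by distance limit every comparison, and levels of different marks come from different libraries.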
